A study of Mus musculus with 9 samples.

Results

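Injury-activated Tnc fibroblasts of the mouse heart were examined as single nuclei, chosen by a rule on detected transcripts. A nucleus was a member when at least 3 of the 6 injury genes Tnc, Adam12, Ltbp2, Postn, Cxcl5 and Kif26b had a transcript, at least 2 of the 7 fibroblast genes Col1a2, Col3a1, Dcn, Pdgfra, Fbln1, Bicc1 and Gsn had one, and no more than 2 of the 6 genes of other lineages Pecam1, Cdh5, Ptprb, Csf1r, Adgre1 and Rbm20 had one. The rule found 1156 members among 49171 nuclei, 2.35% of the series. Nuclei came from frozen hearts of C57BL/6 mice and were sequenced on the 10x Genomics 3′ platform. The study took its tissue from below the site of ligation, so shares given here are not of the whole heart. The sham group (3 mice) was given vehicle by gavage over 7 days and operated with the needle only, with no ligation. The I/R group (3 mice) had the same vehicle, then a ligation of the left anterior descending coronary artery for 30 min and 24 h of reperfusion. The SBP group (3 mice) had the same ischemia and reperfusion after 7 days of Shexiang Baoxin Pill (MUSKARDIA), a traditional Chinese medicine. No group received SBP without injury. Every value in I/R and SBP is therefore from a heart that was injured, at a single time after reperfusion.

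Cardiac fibroblasts lay down and maintain the collagen network between the muscle cells. After ischemic injury some of them enter the cell cycle and turn toward a matrix-producing state, in which they secrete fibrillar collagens, the enzymes that crosslink them, and matricellular proteins, which are matrix-bound signals that are scarce in the healthy heart. Tenascin C (Tnc) and periostin (Postn) are the best-known matricellular markers of this state. Of the other injury genes, Adam12 encodes a membrane metalloprotease-disintegrin, Ltbp2 a protein of the elastic microfibril related to the latent TGF beta binding proteins, Cxcl5 a chemokine that attracts neutrophils, and Kif26b a kinesin-family protein. In the GRCm38 annotation Tnc lies on chromosome 4 from 63959785 to 64047015, Postn on chromosome 3 from 54361109 to 54391037, Adam12 on chromosome 7 from 133883199 to 134232146 and Kif26b on chromosome 1 from 178529125 to 178939200. All are protein coding. Other annotated genes overlap Tnc and Kif26b on the opposite strand, and how the counting treated strand is not given in the sources used here.

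The libraries held 4576 to 6418 nuclei each, with a median of 1540 to 2031 unique molecular identifiers (UMIs, each standing for 1 captured transcript molecule) per nucleus. Barcodes that occurred in more than 1 library numbered 290 over all nuclei and 0 among the members. Every nucleus was also given a cell type by the likelihood of its transcripts under marker-based profiles that left out all 19 genes of the rule. The nuclei that gave these profiles were picked by markers that include genes of the rule, so the scored type is not fully independent of it. Of the 1156 members, 1059 (91.6%) were scored as fibroblast, 31 as neutrophil, 21 as cardiomyocyte, 21 as endothelial, 13 as myeloid, 7 as smooth muscle or pericyte and 4 as Schwann cell. The 12667 nuclei scored as fibroblast that did not meet the rule are called other fibroblast-like nuclei here and serve as the comparator.

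The members were present in injured hearts and nearly absent from sham hearts. The sham hearts held 2, 0 and 2 members, the I/R hearts 349, 234 and 100, and the SBP hearts 148, 217 and 104. The empty sham library had 0 of 5919 nuclei, which allows a share of up to 0.0507% from counting error. As a share of fibroblast-like nuclei (the members plus the comparator), members made up 0.139%, 0% and 0.147% in sham, 24.3%, 16.8% and 5.92% in I/R, and 8.72%, 14.8% and 5.60% in SBP. No sham heart came near any injured heart. Since the rule names injury genes, this contrast is a description and was not tested.

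Between the injured groups the shares overlapped. The mean was 15.7% ± 9.23 (SD, n = 3) in I/R and 9.69% ± 4.66 (SD, n = 3) in SBP, a difference of -5.96 percentage points (two-sided exact permutation test, p = 0.4, where the smallest p that 3 mice against 3 allow is 0.1). The third I/R heart, at 5.92%, lay below the first and second SBP hearts. The first I/R heart carried most of the gap: without it the difference was -1.65 percentage points, and without the third I/R heart it was -10.8. Of all nuclei, members made up 3.90% ± 1.91 in I/R and 2.92% ± 0.895 in SBP (SD, n = 3 each; exact permutation p = 0.5).

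**Figure D1:**
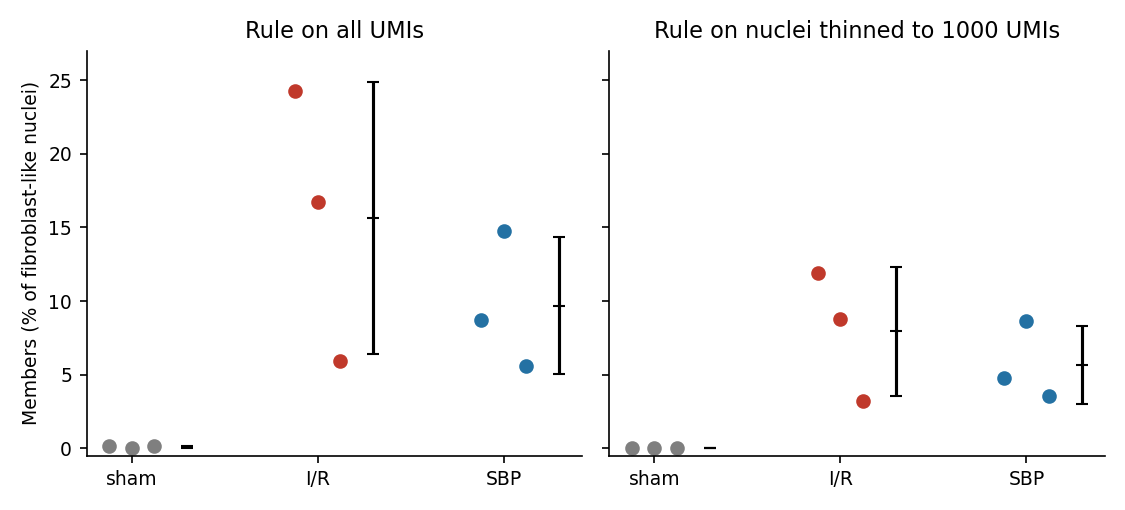
Members as a percentage of fibroblast-like nuclei in each heart, with the rule applied to all UMIs (left) and to nuclei thinned to 1000 UMIs (right). Points are hearts in the order of their replicate number, and the bar beside them is the mean with its SD over 3 hearts. The I/R and SBP hearts overlap in both panels, and the sham hearts lie at or near 0.

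Members were deeper than their comparator, and detection of several genes is easier in a deep nucleus. The median member held 3944, 3146 and 5517 UMIs in the 3 I/R hearts and 2968, 4952 and 4102 in the 3 SBP hearts, against 1654 to 1976 for other fibroblast-like nuclei in the same hearts. Every injured heart had the deeper members. To put nuclei on 1 footing, each of the 43245 nuclei with at least 1000 UMIs was thinned at random to 1000 UMIs before the rule was applied. That left 561 members, 0 of them in sham, and shares of 11.9%, 8.75% and 3.21% of fibroblast-like nuclei in I/R and 4.79%, 8.65% and 3.57% in SBP. The difference of SBP from I/R in these shares was -2.27 percentage points (exact permutation p = 0.6). Members with over 3 times the median UMIs of the comparator in their heart numbered 364, or 31.5%. No doublet caller was run, so 2 nuclei in 1 droplet may be among these. Leaving them out changed no call between SBP and I/R.

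The rule's own genes describe the members by construction and are given as such. In the injured hearts, with 1152 members and 8396 comparator nuclei, Adam12 had a transcript in 91.1% of members, Postn in 78.7%, Kif26b in 63.5%, Tnc in 62.7%, Ltbp2 in 58.9% and Cxcl5 in 42.3%, while each was found in 2.23% to 11.6% of the comparator. The minimum of 3 injury genes was met exactly by 467 members (40.4%), 4 were found in 347, 5 in 254 and all 6 in 88 (7.61%). Across hearts the mixture varied: Kif26b was detected in 79.4%, 55.6% and 53% of the I/R members and in 45.3%, 71.4% and 48.1% of the SBP members, and Cxcl5 in 30.9%, 50.9% and 54.0% of the I/R members and 41.2%, 45.2% and 45.2% of the SBP members. The first I/R heart thus had the highest share with Kif26b and the lowest with Cxcl5. Nuclei that met the other conditions but had exactly 2 injury genes, just outside the rule, numbered 966, of which 11, 14 and 7 came from the sham hearts, 302, 167 and 75 came from the I/R hearts and 141, 144 and 105 from the SBP hearts. At the other limit of the rule, of 1244 nuclei with at least 3 injury genes, 69 had too many genes of other lineages and 27 too few fibroblast genes, some of them both.

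The label was checked against fibroblast and other lineage markers. Col1a1, the main chain of type I collagen, is no part of the rule. It was set as a marker of these cells with earlier results of these data known, so it is no independent check. It had a transcript in 86.9% of members and in 26.1% of the shallower comparator nuclei of the injured hearts. Of the 9 fibroblast markers 7 are genes of the rule, so their levels are no check of the label, and they went opposite ways: in mean CPM (the summed UMIs brought to a common total of counts, with TMM scaling) Col3a1 stood at 4536 in members against 1091 in the comparator and Col1a2 at 3231 against 683, but Dcn at 766 against 2715 and Gsn at 242 against 1275. The markers outside the rule, Abca8a and Tcf21, were both lower in members, at 435 against 3534 and 9.85 against 25.2 CPM. The 8 endothelial markers, of which the rule caps 3, summed to 165 to 453 CPM in members against 518 to 830 in the comparator, and most of that gap was Tek, at a mean of 74.1 against 401 CPM. The 6 smooth muscle and pericyte markers summed to 111 to 195 CPM in members against 102 to 185 in the comparator, so they were not lower, and the 5 Schwann markers to 55.1 to 118 against 214 to 493. The neutrophil markers summed to 28.4 to 187 CPM in members against 52.0 to 272 in the comparator, the T cell markers to 0 to 11.98 against 2.89 to 17.2, the B cell markers to 5.99 to 44.1 against 1.84 to 13.8, and the mesothelial markers to 6.84 to 15.6 against 2.57 to 8.17, with Lrrn4 at 0 in all 6 hearts. Of the members 21 were scored as cardiomyocyte, while the comparator was all scored as fibroblast. The 8 cardiomyocyte markers ranged from 828 to 4723 CPM in members and from 1827 to 2930 in the comparator. Cardiomyocyte transcripts were therefore present in both populations, highest in the members of the first I/R and the first SBP heart, where Ttn, the giant sarcomere spring, reached 1461 and 1453 CPM against 174 to 727 CPM in the members of the other hearts. Whether these came from free RNA or from droplets with more than 1 nucleus was not tested.

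The difference between members and other fibroblast-like nuclei was taken within each heart, as members minus comparator in log2(CPM + 1), and is given as the median over the 6 injured hearts with the number of hearts on the same side. This is a description without a test, because nuclei chosen for some genes differ in whatever goes with them. Among 9799 genes outside the rule with a mean of at least 10 CPM, 19.7% were higher in the members of all 6 hearts and 26.4% were lower in all 6, and the median gene differed by -0.05. Scaling by total UMIs in place of TMM raised that median to 0.12 and turned the split to 27.6% higher and 17.9% lower. Counts for each gene list below are read beside these background shares. The lists were drawn up from what the genes are known to do, with earlier results of these data known.

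Matricellular proteins were the group that the rule itself points to. Of 12 measured members of the list outside the rule, 7 were higher in all 6 hearts and 0 lower, with a median difference of 1.24. Cthrc1, a secreted collagen-associated protein, which the list did not hold, had the largest median difference of all genes outside the rule that had the same sign in every heart and a mean of at least 50 CPM in the higher population: 272, 207 and 230 CPM in I/R members and 131, 196 and 310 in SBP members, against 41.8, 18.8 and 5.50 in the I/R comparator and 17.8, 8.22 and 7.70 in the SBP comparator. The populations did not overlap in any heart, and the median difference was 3.90. Ccn4, a Wnt-inducible matricellular protein, followed at 3.76, with 64.6 to 155 CPM in members and 3.21 to 10.8 CPM in the comparator. Fibronectin (Fn1), the scaffold on which collagen fibers assemble, stood at 1885, 679 and 453 CPM in I/R members and 541.5, 1067 and 936 in SBP members, against 53.5 to 292 CPM in the comparator, a median difference of 2.79. The first I/R heart was highest for Fn1 in both populations. Thbs4 had a median difference of 3.10 but rested on few transcripts, with 1.42 to 82.6 CPM in members. Thbs2 went the other way in 5 of 6 hearts, with a median of -2.27, so the list was not of 1 direction. Osteopontin (Spp1), also on the list, differed by -0.17 in median and by 0.05 with total UMI scaling.

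Fibrillar collagen is built from secreted chains that enzymes modify and crosslink. Of 15 measured collagens outside the rule, 7 were higher in all 6 hearts and 0 lower, with a median difference of 1.24. Col1a1 stood at 1658, 1588 and 1488 CPM in I/R members and 1072, 1288 and 1291 in SBP members, against 468, 358.5 and 153.5 CPM in the I/R comparator and 256, 243.5 and 156.5 in the SBP comparator. Its median difference was 2.27, and the lowest member value lay above the highest comparator value. Col12a1, a collagen that decorates fibrils under strain, had the largest median of the list at 3.17, with 158.5 to 244 CPM in members and 16.5 to 28.4 in the comparator. Col5a2, a chain of the collagen that nucleates fibrils, differed by 1.72. The basement membrane collagen Col4a1 stood on the other side, at -0.18 with 1 of 6 hearts higher and 5 lower. Among 14 measured processing genes 9 were higher in all 6 hearts and 0 lower, with a median of 1.11. P4ha3, a prolyl hydroxylase that lets the triple helix form, differed by 2.93, at 32.7 to 86.7 CPM in members and 2.14 to 9.05 in the comparator. The crosslinking oxidases Loxl2, Loxl3 and Lox differed by 1.98, 1.95 and 1.43, and the collagen chaperone Serpinh1 by 1.37. Plod1 and Plod2, which hydroxylate lysines, differed by -0.10, lower in 5 of 6 hearts, and 0.05. With total UMI scaling Plod1 stood at 0.099.

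TGF beta signalling showed no common direction. Of 18 measured genes, 3 were higher in all 6 hearts and 6 lower, with a median of 0.08. Among the higher genes were Inhba, the activin A subunit, at 1.38, and the ligand Tgfb2 at 0.84. Inhba stood at 24.5, 23.8 and 55.4 CPM in I/R members and 42.0, 33.7 and 84.3 in SBP members, and at 9.17 to 18.8 CPM in the comparator. Nuclei with no cell cycle transcript were also compared, over the 5 hearts with at least 20 such members. There the median difference was -0.51 for Inhba and 0.23 for Tgfb2. Inhba rested on few transcripts there, so its change of sign is uncertain. Such members held 5.43 and 27.6 CPM in I/R hearts 1 and 2, and 71.1, 6.85 and 13.6 CPM in the SBP hearts. The lower genes were the receptors Tgfbr2 and Tgfbr3, at -0.72 and -0.75, the latency proteins Ltbp1 and Ltbp4, at -0.92 and -0.89, and the transducers Smad3 and Smad4, at -0.62 and -0.36. With total UMI scaling 3 of the 18 were lower in all 6 hearts and 4 higher.

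Contractile genes are those a myofibroblast uses to pull on its matrix. Of 10 measured genes 7 were higher in all 6 hearts and 0 lower, with a median difference of 1.09. Acta2, the smooth muscle actin that defines myofibroblasts, had 43.3, 16.9 and 34.1 CPM in I/R members and 9.34, 28.4 and 49.9 in SBP members, against 3.06 to 13.8 CPM in the comparator. The lowest member library overlapped with the comparator, and the median difference was 1.41. The tropomyosin Tpm2 differed by 2.41, nonmuscle myosin Myh9 by 1.60 and the actin-bundling protein Palld by 1.60. Calponin 1 (Cnn1), smooth muscle gamma actin (Actg2) and leiomodin 1 (Lmod1), genes of mature smooth muscle, stood at 0.771, 0.809 and 1.26 CPM in members, below the level needed to be measured.

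Proteases and inhibitors were split. Of 17 measured genes outside the rule 5 were higher in all 6 hearts and 5 lower. Timp1, an inhibitor of metalloproteases, differed by 2.01, with 158, 404 and 225 CPM in I/R members, 199, 162 and 453 in SBP members and 31.8 to 101 in the comparator. The inhibitors Timp2 and Timp3 lay on the other side, at -0.78 and -2.41. Mmp2, the constitutive gelatinase of fibroblasts, was lower in members in all 6 hearts at -1.91, with 18.9 to 71.5 CPM against 125 to 211 CPM. Pappa, which cleaves IGF binding proteins, differed by 2.23 and Adamts6 by 2.11, and the procollagen peptidases Adamts14 and Adamts2 by 1.82 and 0.95, while the aggrecanase Adamts5 differed by -1.5.

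Fibroblasts also secrete signals to blood cells. Of 12 measured cytokines, chemokines and receptors outside the rule 8 were higher in all 6 hearts and 1 lower, with a median difference of 1.14, and 3 had hearts on both sides. Il6 stood at 38.8, 250.3 and 96.6 CPM in I/R members and 87.1, 22.5 and 86.1 in SBP members, against 2.24 to 39.3 CPM in the comparator, and differed by 2.75. Its level spread widely between hearts of 1 group. The neutrophil chemokine Cxcl1 differed by 1.12, the monocyte chemokines Ccl2 and Ccl7 by 1.22 and 1.61, the macrophage growth factor Csf1 by 1.37, the alarmin Il33 by 1.13 and the interleukin 1 receptor Il1r1 by 0.85. Cxcl14, a chemokine of resting stroma, was lower in all 6 hearts at -1.98.

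Among transcription factors of injury, 6 of 14 measured were higher in all 6 hearts and 3 lower. Runx1 stood at 471, 324 and 359.5 CPM in I/R members and 328, 352 and 535 in SBP members against 42.2 to 106 CPM in the comparator, a median difference of 2.56. Meox1, a homeobox factor of activated fibroblasts, differed by 2.63 and Egr2 by 2.07. The immediate early genes Egr1 and Fos were lower in the members of all 6 hearts, at -1.93 and -1.07, so factors of the same family (Egr1 and Egr2) stood on opposite sides.

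Genes of the resting cardiac fibroblast were low in members. All 11 measured genes of that list outside the rule were lower in all 6 hearts, with a median difference of -1.64. Scara5, a ferritin receptor of resident fibroblasts, had 17.7, 40.7 and 22.7 CPM in I/R members and 21.8, 25.4 and 13.8 in SBP members, against 405, 705 and 774.5 CPM in the I/R comparator and 567, 683 and 529 in the SBP comparator. At -4.67 it was the lowest of all genes that the rule for naming took in. Inmt, an amine methyltransferase, had 0 to 8.61 CPM in members, in part under the 3 UMIs that equal 5.52 CPM in the smallest member library, against 17.7 to 220 CPM in the comparator. Abca8a, a lipid transporter, remained well expressed, at 305 to 632 CPM in members against 2420 to 4572 in the comparator. Outside that list, the complement component C7 stood at 10.3 to 56.9 CPM against 170 to 1334 CPM. Other genes with the largest negative differences were Lvrn, Col6a6, Galnt15, Gsta3, Tll2, Trhde, Ppl, Vit, Lepr, Gfra1 and Plcxd3, between -4.32 and -3.72. Pdgfra, the receptor that defines the lineage and 1 of the rule's fibroblast genes, differed by only -0.15 and by 0.07 with total UMI scaling.

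**Figure D2:**
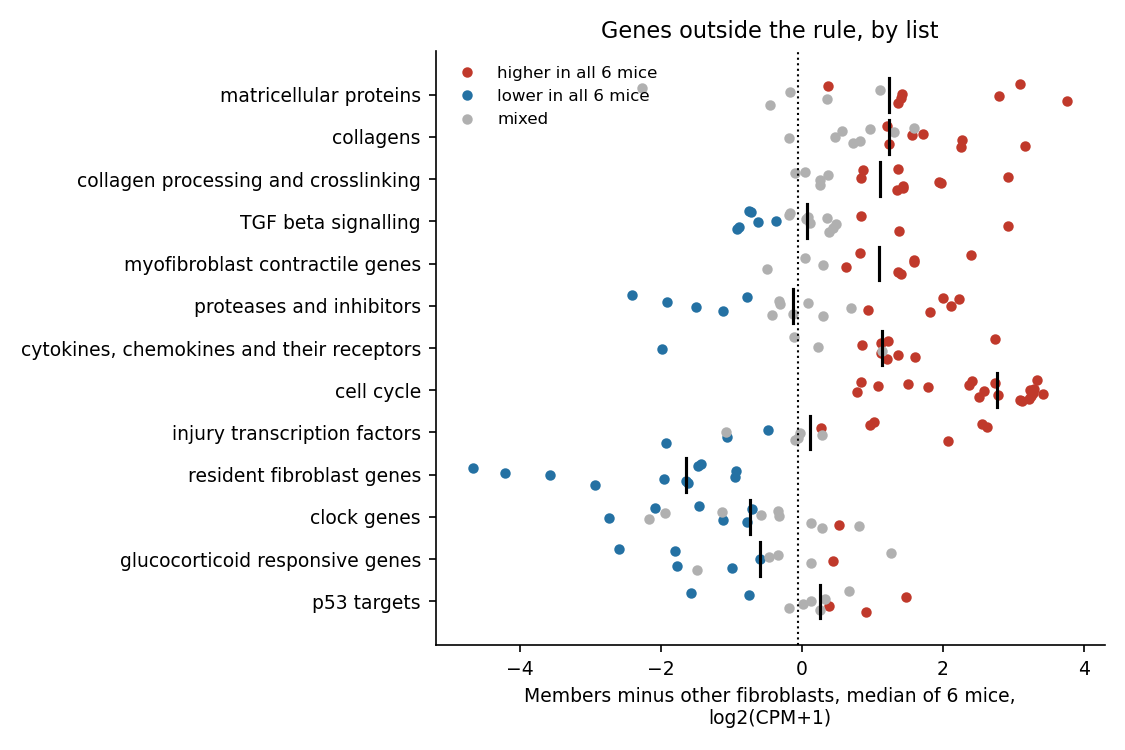
Each point is a measured gene outside the rule, placed by the median over 6 hearts of its difference between members and other fibroblast-like nuclei in log2(CPM + 1), and colored by whether all 6 hearts agreed in sign. Black bars are list medians and the dotted line is the median of all 9799 genes at -0.05. The cell cycle list sits furthest to the right (median 2.76) and the resident fibroblast list furthest to the left (median -1.64).

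The cell cycle set the members apart most widely of the 14 lists. All 20 measured genes of the list were higher in all 6 hearts, with a median difference of 2.76, and most of the 15 genes with the largest positive differences outside the rule act in chromosome segregation, cytokinesis, DNA replication or its repair, among them Ttk, Prc1, Dtl, Polq, Kif4, Diaph3, Neil3, Kif15, Fanca, Ncapg and Top2a. The 15 also held Cthrc1, Ccn4 and the long noncoding RNA Gm6093, at 3.52. Top2a, the topoisomerase that untangles replicated chromosomes, had 235, 215.5 and 229 CPM in I/R members and 193, 232 and 162 in SBP members, and 10.4 to 31.9 CPM in the comparator. The populations were wide apart in every heart, and the SBP and I/R members overlapped. Within the list the differences ran from 0.78 for Ezh2, a histone methyltransferase, and 0.84 for the polymerase subunit Pola1 to 3.42 for Diaph3. The 4 measured subunits of the replicative helicase, Mcm3, Mcm4, Mcm5 and Mcm6, differed by 1.79, 1.08, 2.37 and 1.51.

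The share of nuclei with cell cycle transcripts was followed in each heart. At least 3 of the 22 cell cycle genes had a transcript in 50.7%, 45.7% and 58.0% of I/R members and in 52.0%, 62.7% and 52.9% of SBP members, against 1.31% to 5.51% of other fibroblast-like nuclei and 0.401% to 5.10% of cardiomyocyte-scored nuclei, which should rarely hold these transcripts. After thinning each nucleus to 1000 UMIs the share was 30.8%, 30.0% and 37.4% in I/R members and 39.7%, 34.7% and 24.8% in SBP members, against 0.394% to 2.185% in the comparator and 0% to 0.0944% in cardiomyocyte-scored nuclei. Shallower nuclei were left out, 8, 21 and 1 of the I/R members and 7, 4 and 3 of the SBP members. The members here were those the rule chose on all UMIs, so their greater depth at that choice was not removed. Members with at least 3 cell cycle genes were also the deeper ones in each heart, with a median of 3294 to 6146 UMIs against 2454 to 5525 in members with none. The I/R and SBP hearts overlapped on both scales, with means of 32.7% ± 4.03 and 33.1% ± 7.62 after thinning (SD, n = 3 each). Seen from the other side, 74.7%, 73.3% and 69.9% of the fibroblast-like nuclei with at least 3 cell cycle genes were members in I/R and 60.2%, 74.7% and 70.5% in SBP, while the sham hearts held 2, 5 and 5 such nuclei, 0 of them members.

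**Figure D3:**
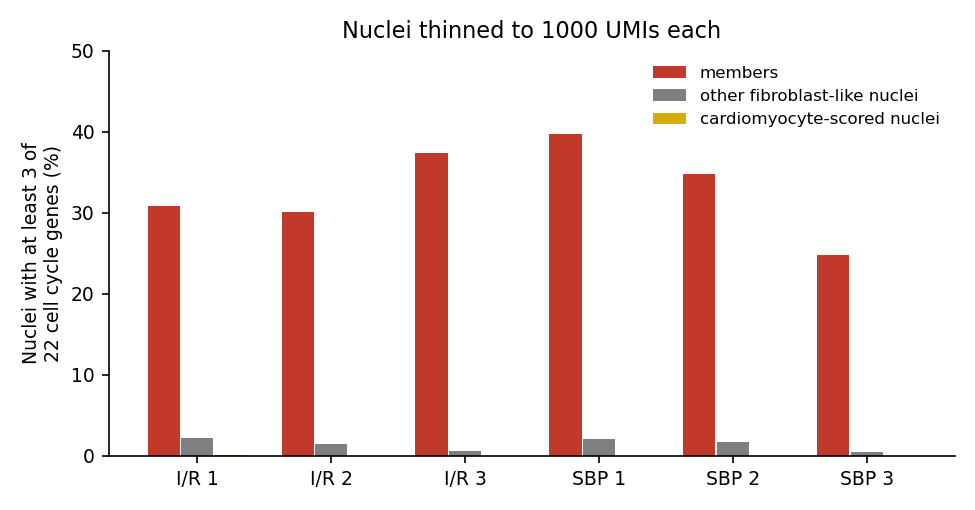
Percentage of nuclei with a transcript of at least 3 of 22 cell cycle genes in each injured heart, after thinning every nucleus to 1000 UMIs, for members, other fibroblast-like nuclei and cardiomyocyte-scored nuclei. Bars are single hearts, and members were chosen on all UMIs before thinning. Members lie between 24.8% and 39.7%, and the other populations at or below 2.185%.

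Members with and without cell cycle transcripts were then set side by side, in the 5 hearts that held at least 20 of each (the third I/R heart had 17 without). Over 9867 measured genes, 14.8% were higher in the cycling members of all 5 hearts and 4.10% lower. Of the 12 matricellular genes 0 were higher and 0 lower in all 5 hearts, and of the 15 collagens 2 (13.3%) were higher and 0 lower, no more than among all genes. The 2 were Col12a1, with a median difference of 0.58 on the log2 scale, and Col5a1, with 0.53. Cthrc1 was higher in the cycling members of all 5 hearts, at a mean of 272 against 170.2 CPM. Genes of the resting state were lower still in cycling members. Of 8 measured resident genes 4 were lower in all 5 hearts, among them Abca8a with a mean of 290.0 against 799.8 CPM. C7, outside that list, stood at a mean of 6.36 against 68.8 CPM, with a median difference of -1.88. Members with no cell cycle transcript ranged widely in C7, from 13.6 CPM in SBP heart 3 to 192 CPM in SBP heart 2. When only nuclei without any cell cycle transcript were compared over these 5 hearts, 625 of 9673 genes were higher in the members of every heart and 1924 lower, and the median difference between members and other fibroblasts over all genes was -0.21. The list medians were then 1.03 for matricellular genes, 1.125 for collagens and -1.70 for resident genes, while that for TGF beta signalling stood at -0.45, on the other side of 0 from its value over all members. Single genes given above moved by over 1.5 times too, such as Meox1 to 1.62, Loxl2 to 1.27 and Csf1 to 0.80, while Egr2 stood at 3.67.

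Levels outside the rule went with the number of injury genes detected. Nuclei that met the other conditions of the rule were grouped by that number and summed per heart, first with no demand on their scored type from 2 injury genes upward. The class with 2 then held 934 nuclei in the injured hearts, of which 489 were scored as fibroblast, and its cardiomyocyte markers summed to a median over 6 hearts of 17380 CPM, against 1971 with 1 injury gene and 4507 with 3. The classes were therefore taken again from nuclei scored as fibroblast alone, an alternative chosen after the data were seen, in which the cardiomyocyte markers summed to 1586 CPM with 2 injury genes and 1549 with 3. In these nuclei Cthrc1 had a median over 6 hearts of 4.27 CPM with 0 injury genes, 12.2 with 1, 68.1 with 2, 136 with 3, 223 with 4 and 292 with 5 or 6. Scara5 ran the other way, at 736, 596, 214, 52.0 and 14.4 CPM in the classes from 0 to 4 and 13 CPM with 5 or 6. Just outside the rule Scara5 thus stood at 214 CPM and just inside at 52.0 CPM, where with no demand on the type it stood at 111 and 44.7. Pdgfra, a fibroblast gene of the rule, at 554 CPM with 0 injury genes, 521 with 2 and 522 with 3, differed little between the classes. Acta2 went from 6.65 to 30.1 CPM, with wide ranges from 2 injury genes upward. Depth moved along with the classes: with no demand on the type, the median nucleus held 1597 to 1947 UMIs with 0 injury genes and 4093.5 to 7159 with 5 or 6, and the part of depth in these steps was not tested. All of these are descriptions with no test.

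**Figure D4:**
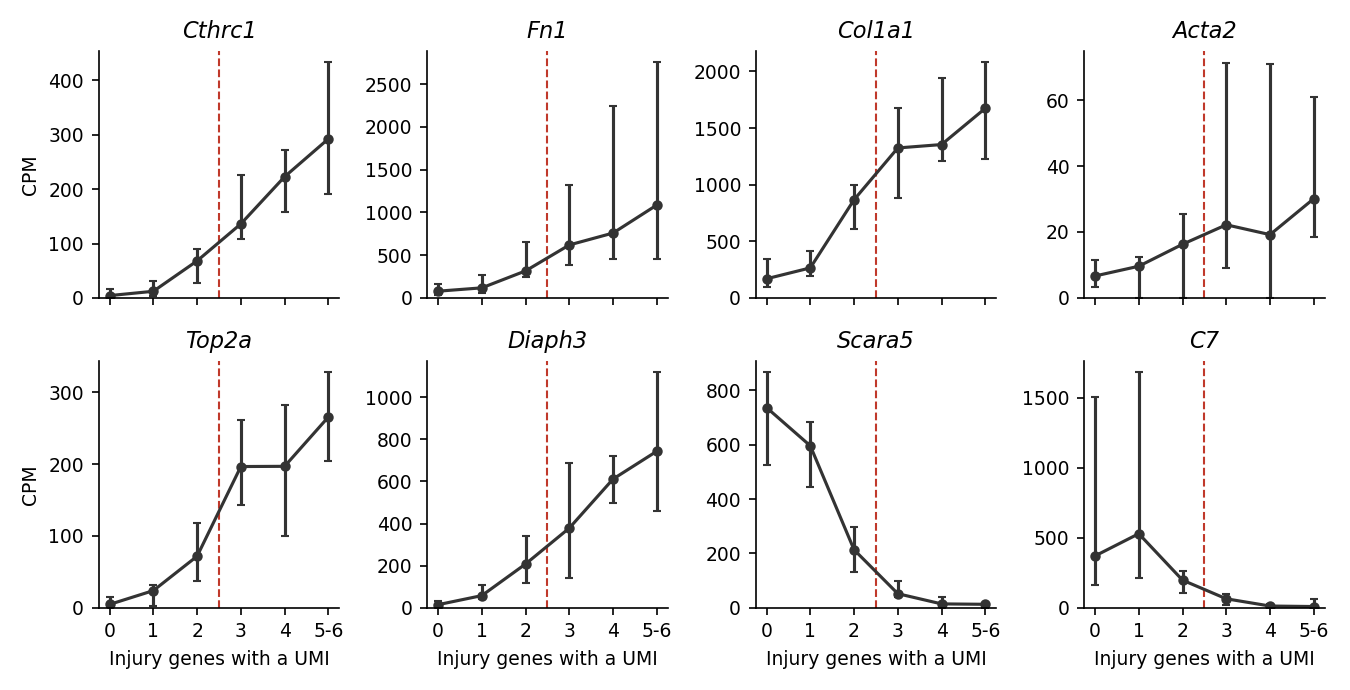
CPM of 8 genes outside the rule in fibroblast-scored nuclei grouped by how many of the 6 injury genes had a UMI, summed per heart. Points are medians over the 6 injured hearts, error bars run from the lowest to the highest heart, and the dashed line is the rule's limit between 2 and 3. Cthrc1, Fn1, Top2a and Diaph3 are higher, and Scara5 and C7 lower, with 3 injury genes than with 2.

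The clock and glucocorticoid lists both had medians below 0. Of 16 measured clock genes 6 were lower in all 6 hearts and 1 higher, with a median of -0.74, and of 11 glucocorticoid-responsive genes 5 were lower and 1 higher, with a median of -0.60, beside 26.4% of all genes lower. With scaling by total UMIs 4 clock genes were lower and 2 higher, and 5 and 2 of the glucocorticoid list. Hlf and Tef, transcription factors driven by the clock, differed by -2.74 and -1.47. Zbtb16, a steroid-induced zinc finger factor, stood at 267, 556 and 467.5 CPM in I/R members and 512, 240 and 150 in SBP members against 1354 to 2863 CPM in the comparator, a median difference of -2.59. Tsc22d3 and Klf9, both induced by glucocorticoids, differed by -1.79 and -1.77. Sgk1 was higher in 5 of 6 hearts, at 1.26.

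The comparison of SBP with I/R asked which genes the pretreatment changed within the members. The members' UMIs were summed per heart (543132 to 1656992 UMIs) and compared with limma, a linear model with moderated variances, on log2(CPM + 1) over 9313 genes outside the rule. With p-values adjusted by Benjamini and Hochberg's method and held to 0.05, and a log2 fold change beyond 0.25 required, 0 genes were called (0%). At an unadjusted p under 0.05, 283 genes stood (3.04%), 156 of them higher in SBP and 127 lower. The 2 groups did not overlap for 778 genes (8.35%), where full separation of 3 mice against 3 has a two-sided permutation probability of 0.1. Each group held 3 mice, and the p-values weigh the difference between the groups against the spread between mice, moderated across genes.

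Aldh1a2, the retinaldehyde dehydrogenase that makes retinoic acid, had the smallest p. It lies on chromosome 9 from 71215789 to 71296243, and the gene Gm48124 overlaps it on the other strand. Its level was 163, 156.5 and 156 CPM in I/R members and 443, 297.5 and 501 in SBP members. The I/R hearts were nearly equal, and every SBP heart lay above them. The log2 fold change was 1.35 ± 0.20 (SE) with a limma adjusted p of 0.212, which did not pass. It did pass in 3 alternatives, with at least 4 injury genes required (adjusted p = 0.0374), with no gene of other lineages allowed (0.0187) and with no filter on low genes (0.00145), and over all alternatives the adjusted p ran from 0.00145 to 0.9998. In the comparator Aldh1a2 stood at 129, 99.7 and 51.0 CPM in I/R and 98.7, 176 and 150 in SBP, where the groups overlapped, and the effect in members exceeded that in the comparator by 0.72 ± 0.46 (SE, limma adjusted p = 0.9995). The study itself names Aldh1a2 among its SBP genes in fibroblasts of these same mice, so that list is no independent evidence.

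The other genes with the smallest p values did not pass either, each at a limma adjusted p of 0.9989. Higher in SBP were Pak1, a kinase of the actin cytoskeleton, by 0.82 ± 0.19, Ank1, a membrane-skeleton adaptor, by 1.13 ± 0.26, the clock output factor Tef by 0.94 ± 0.22 and the basement membrane collagen Col15a1 by 0.89 ± 0.22 (log2 fold change ± SE). Lower were the thromboxane synthase Tbxas1 by -1.497 ± 0.31, the complement subunit C1qa by -1.73 ± 0.39, the apoptosis inhibitor Birc2 by -0.71 ± 0.17, the cytochrome Cyp1b1 by -1.45 ± 0.34 and Ms4a4a by -2.16 ± 0.54. Tef had 45.1, 44.7 and 33.3 CPM in I/R members and 84.7, 84.2 and 68.3 in SBP members. In other fibroblast-like nuclei it stood at 80.6, 93.9 and 144 CPM in I/R and 164.5, 241 and 302 in SBP. The effect on Tef in members differed from that in the comparator by -0.18 ± 0.46 (SE, limma adjusted p = 0.9995). Ank1 and Birc2 also separated in the comparator, in the same directions, while the rest of the 9 genes overlapped there. C1qa had 33.1, 38.3 and 27.3 CPM in I/R members and 4.98, 13.6 and 10.8 in SBP members. For all 9 genes the SBP and I/R members did not overlap, as for 8.35% of genes tested. Since the genes were picked by p in this same contrast, that separation adds no support. Several of these log2 fold changes moved by over 1.5 times with the choice of nuclei: in members with no cell cycle gene Pak1 stood at 0.22, Tef at 1.75 and Birc2 at -1.08, with at least 4 injury genes Ank1 stood at 1.80, without members of high UMIs Ank1 stood at 0.69 and Tef at 1.46, and in members scored as fibroblast Tbxas1 stood at -0.94. With a pseudocount of 10 C1qa stood at -1.13 and Ms4a4a at -1.22.

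**Figure D5:**
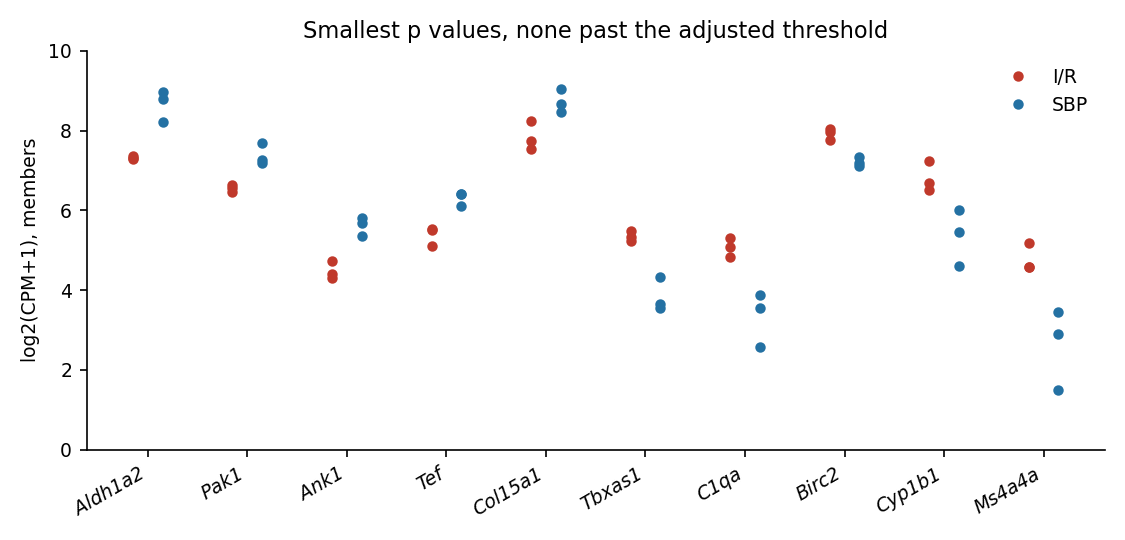
Level in members, as log2(CPM + 1), of the 5 genes with the smallest p in each direction for SBP against I/R. Each point is 1 heart. The groups do not overlap for any of the 10 genes, as for 8.35% of all genes tested, and none passed the adjusted threshold. The genes were picked by p in this same contrast, so the separation adds no support.

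C1qa, Tbxas1 and Ms4a4a are genes of macrophages, and the myeloid marker list was set beside them. The 8 myeloid markers summed to 183 to 420 CPM in I/R members and 107 to 221 in SBP members, where the groups overlapped. In the comparator they summed to 351 to 556 CPM in I/R and 202 to 314 in SBP. Myeloid nuclei made up 35.3%, 21.3% and 17.1% of the I/R libraries and 11.9%, 27.4% and 12.9% of the SBP libraries. In other fibroblast-like nuclei C1qa had 75.4, 26.2 and 24.7 CPM in I/R and 17.9, 24.8 and 16.2 in SBP. The part of myeloid RNA in these differences was not tested.

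No gene of the 14 lists was called, and list medians of the log2 fold change ran from -0.30 to 0.22, beside 0.000242 over all genes. The matricellular list had a median of 0.01 and the collagens -0.01. Of the 22 cell cycle genes, 2 had an unadjusted p under 0.05 and both were higher in SBP, Mcm3 and Pola1, beside 3.04% of all genes in either direction, and the list median was -0.01. Of 15 clock genes 5 did not overlap between the groups, among them Nr1d2, a nuclear receptor of the clock, at 0.76, Arntl, the clock activator, at -1.04, and Tef, beside the 8.35% of all genes. At an unadjusted p under 0.05, 3 clock genes were higher and 2 lower, beside 3.04% of all genes, with none called. Of the 19 genes tested that the study names for SBP in fibroblasts, 2 stood higher at an unadjusted p under 0.05 (Aldh1a2 and Sgcd) and 1 lower (Mdm2, at -0.76), beside the same 3.04%, with a list median of -0.30. Pappa stood at -1.05 and Spp1 at -1.17, with overlapping groups, and Zbtb16 at -0.64. Of the 15 collagens 2 were higher and 2 lower at an unadjusted p under 0.05, beside 3.04% of all genes in either direction. The 2 higher were Col15a1, given above, and Col8a1, and Col1a1 was 1 of the 2 lower. For 3 of the 15 (20%) the groups did not overlap, beside 8.35% of all genes. Col8a1, a short-chain collagen, had a log2 fold change of 0.65 ± 0.25 (SE, limma unadjusted p = 0.0226, adjusted p = 0.9989), with overlapping groups. Col1a1 had one of -0.38 ± 0.16 (SE, limma unadjusted p = 0.0355, adjusted p = 0.9989), with the 3 SBP hearts below the 3 I/R hearts, and Col6a3 one of 0.49 ± 0.23 (SE, limma unadjusted p = 0.0593, adjusted p = 0.9989), with the 3 SBP hearts above.

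Whether SBP acted otherwise in members than in other fibroblast-like nuclei was tested on the per-heart differences. Again 0 of 9313 genes were called with limma (0%), 383 stood at an unadjusted p under 0.05, and the smallest adjusted p was 0.786. I/R members could not be tested against sham members, since no sham heart held the 20 members that a sum required and the sham members summed to 4473 and 5814 UMIs in the hearts that had any. Over all fibroblast-like nuclei, members included, Tnc stood at 3.16, 5.33 and 1.76 CPM in sham, 528, 390.5 and 336 in I/R and 340.0, 626 and 573 in SBP. Top2a stood at 0.451, 4.19 and 0 CPM in sham, 114, 76.4 and 46.9 in I/R and 49.9, 86.3 and 36.0 in SBP. Fewer such nuclei and less RNA in each cannot be told apart in these sums.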

How the data were processed

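The deposited tables held 1 natural log value per gene and nucleus. The authors aligned the reads to mm10 with Cell Ranger (4.0 in the submitters' processing notes, which also name STAR and Seurat 3.2.0; the study's methods name later versions of both, and which made the tables is unclear), down-sampled libraries to similar mapped reads per cell, kept nuclei with over 200 genes and under 10% mitochondrial reads per the study's methods, removed mitochondrial genes, and deposited ln(1 + 10000 × UMIs / total). The tables hold 49171 nuclei, fewer than the study states after quality control, all with over 200 genes. Each nucleus's UMIs were recovered from these values as multiples of its smallest value (99.9994% to 99.9999% within 0.1 of a whole number). Because the deposited unit is a natural log, limma 3.58.1 (trend and robust options) was used in place of the count model of the study. UMIs were summed per heart over members and over other fibroblast-like nuclei, in hearts with at least 20 members, scaled by TMM and taken as log2(CPM + 1), so fold changes of low genes are understated. CPM values were scaled within each comparison and differ slightly between comparisons. Genes tested had the CPM of 10 UMIs in the median library in at least 3 samples and at least 15 UMIs in all. A call required a p of 0.05 or less after Benjamini-Hochberg adjustment and a log2 fold change beyond 0.25. Shares were compared by two-sided exact permutation.

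Cell types were scored by multinomial likelihood from profiles of nuclei picked by markers. Those nuclei had at least 3 markers of 1 of 10 types and a margin of 2 over the next. The profiles left out the rule's genes, but the markers that picked the nuclei included some of them. No clustering and no doublet caller was run; alternatives left out members of high UMIs, or with any gene of other lineages. Named genes were, between members and other fibroblast-like nuclei, the 15 largest median differences each way among genes of 1 sign in every heart and at least 50 CPM in the higher population, and, for SBP against I/R with nothing called, the 5 smallest p each way, besides genes of the lists; some of these genes are not reported here. The members and the lists were chosen with earlier results of these data known. Intervals and floors (3 counts) cover counting error only. The fitting script was tested on simulated data. Annotation was GENCODE vM21 on GRCm38. Computation used Python 3.11.15, numpy 2.4.6, scipy 1.17.1, pandas 2.3.3 and R 4.3.3.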

Additional observations from a re-analysis of the deposited data

How the results depend on the processing

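With 3 hearts against 3 the test of the member share cannot reach 0.05, so its p says nothing about stability. The SBP minus I/R difference was negative in all 13 alternatives run. They reuse the same hearts, and the replicate block cannot change the difference, so the shared sign is no separate evidence. With 1 heart left out it ran from -10.8 percentage points without I/R heart 3 to -1.65 without I/R heart 1 (-3.91 without SBP heart 3). It was -3.29 with at least 4 injury genes, -2.15 with no gene of other lineages, -2.16 with thinned members over the unthinned denominator, and -0.981 as a share of all nuclei. For SBP against I/R in members, 14 of 17 alternatives called 0 genes, with 75 to 466 at an unadjusted p under 0.05, and 1 gene, Aldh1a2, was called with no filter on low genes, with at least 4 injury genes and with no gene of other lineages. Its log2 fold change was then 1.35, 1.72 and 1.68, and 0.91 to 1.72 over all alternatives; the cause was not tested. With 1 heart left out, 0 genes were called each time. Members against other fibroblast-like nuclei differed by at least 1 in every heart for 639 genes higher and 756 lower. The first count was 261 in nuclei with no cell cycle gene, over 5 hearts, and the second 498 with a pseudocount of 10; both alternatives were chosen after the data were seen. Same-numbered I/R and SBP hearts did not deviate together (r = 0.0388, -0.153 and 0.251), so numbers were taken as names only. With the replicate number as a block, SBP against I/R called 0 genes with limma (308 at an unadjusted p under 0.05), the difference between populations 0 (438), and the share had p = 0.25 (exact permutation, the smallest that 3 pairs allow). Alternatives for I/R against sham were not run, since that contrast could not be tested. Members summed to 543132 to 1656992 UMIs a heart, and 3 UMIs equal 1.81 to 5.52 CPM, which limits genes below that level.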

Other observations

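The p53 pathway halts the cell cycle after DNA damage. Of 11 measured genes of that list, 3 were higher in the members of all 6 hearts and 2 lower than in other fibroblast-like nuclei, with a median difference of 0.26 beside -0.05 over all genes. Cdkn1a, the cyclin-dependent kinase inhibitor p21, had a median difference of -0.18, which was 0.0027 with scaling by total UMIs. Adventitial fibroblast markers summed to 32.7 to 75.5 CPM in I/R members and 41.1 to 46.7 in SBP members. In the comparator they summed to 139 to 404 CPM in I/R and 302 to 514 in SBP. Most of that gap was Pi16, at a mean of 30.1 CPM in members against 306 in the comparator. Dpp4 stood at 6.88 against 36.0 CPM, and Cd248 differed little, at 10.6 against 14.0 CPM.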
